A study of Mus musculus with 2 samples.

Results

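Fibroblasts of the newborn mouse heart that carry transcripts of Tcf21, Dpt, Lum and Pdgfra were described here in single-cell RNA profiles of the whole heart. They are called interstitial fibroblasts as a working name, and their place in the tissue was not measured. A cell barcode was a member when it had at least 500 detected genes, under 0.5% of its counts in 4 haemoglobin genes (Hba-a1, Hba-a2, Hbb-bs, Hbb-bt) and under 0.3% in the myosin light chain genes Myl2 and Myl7. It also needed at least 4 counts summed over Tcf21, Dpt, Lum and Pdgfra, at least 10 over the collagen genes Col1a1 and Col3a1, and 0 over the endothelial genes Pecam1 and Cdh5. At most 2 counts were allowed over Fmod, Prss35, Scx, Rspo3 and Car3, which mark a tendon- and valve-like fibroblast group, and at most 4 over 8 cell cycle genes (Top2a, Mki67, Ccnb1, Ccna2, Cenpf, Hmmr, Anln and Racgap1). The rule found 734 members among 11935 barcodes, 387 of 5888 in technical replicate 1 and 347 of 6047 in technical replicate 2. Of the 11749 barcodes with at least 500 genes, members made up 6.25%, with an exact Clopper-Pearson 95% interval of 5.82% to 6.70%.

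The study measured whole hearts of newborn mice (postnatal day 0) with the background given as C57BL6+ICR, with no treatment or genotype contrast, to build a reference map of heart cell types from which transcription factors for cell conversion were chosen. Minced hearts spent 30 min in trypsin at 37 °C, with 6 fractions of released cells collected 5 min apart, and were loaded on the 10x Chromium system, which tags the 3' ends of transcripts of single cells. Both libraries are technical replicates of 1 biological sample, and the number of hearts pooled is not given. The spread between the libraries is therefore technical, no test over animals was possible, and the intervals below cover counting error only.

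Cardiac fibroblasts lie between the muscle bundles, where they make and turn over the collagen, elastin and proteoglycan network of the heart wall. Most of them descend from the epicardium, and the transcription factor Tcf21 is known to be needed for that lineage to form. Dermatopontin (Dpt) and lumican (Lum) are secreted proteins that bind collagen fibrils, and Pdgfra is the receptor for platelet-derived growth factor used widely to sort fibroblasts. Pericytes, which wrap capillaries, share several of these features and are the mural neighbours of fibroblasts.

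Members were compared with groups formed by marker sums from the same libraries. Scx/Fmod fibroblasts (70 barcodes) had at least 5 counts over Fmod, Prss35, Scx, Rspo3 and Car3 and at least 10 over Col1a1 and Col3a1. Pericytes (234 barcodes) had at least 4 over Rgs5, Kcnj8, Abcc9, Vtn and Higd1b and at most 1 of Myh11, and epicardial cells (29 barcodes) had at least 4 over Upk3b, Upk1b, Msln and Krt19. All of these groups met the members' limits for haemoglobin, Myl2 and Myl7, endothelial and cell cycle genes, and no barcode was in more than 1 group. A barcode that met the members' rule was kept as a member alone. One that met the rules of more than 1 other group was put in none. Endothelial cells (833 barcodes, at least 4 counts over Pecam1 and Cdh5) and cardiomyocytes (1818 barcodes, at least 1% of counts in Myl2 and Myl7) served as reference levels.

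Members had a median of 5534.5 counts (1858 to 16141) and 2272 genes, with 3.21% of counts in mitochondrial genes, and 17 of them had over 20%. The median was 5387.5 counts in Scx/Fmod fibroblasts, 3711 in pericytes and 4339 in epicardial cells. No barcode sequence was shared between the libraries among members, against 53 over all barcodes. Doublets were not removed. Of 5423 genes with at least 100 counts in members, 11 differed over 2-fold between the technical replicates, among them the cardiomyocyte gene Myh6 and the platelet and macrophage chemokine gene Pf4, both higher in replicate 1, and Angptl7, higher in replicate 2.

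Promoters are shown for the marker genes Tcf21 and Dpt, and for 3 neighbouring small leucine-rich proteoglycan genes on chromosome 13, Aspn, Omd and Ogn, since these neighbours differed widely in level among members. Each run covers 250 bases before and 50 after the RefSeq start on GRCm38.p6, 5' to 3' on the gene's strand. Capitals mark TATAAA on either strand (TTTATA where it reads on the other strand) and the palindromic E-box CAGCTG, a form of the site that basic helix-loop-helix factors such as Tcf21 bind. In Dpt the second CAGCTG and the TATAAA abut, and in Ogn a forward and a reverse TATAAA overlap. The windows are chr10:22820094-22820393 on the minus strand for Tcf21, and on the plus strand chr1:164796413-164796712 for Dpt, chr13:49544193-49544492 for Aspn, chr13:49582212-49582511 for Omd and chr13:49607765-49608064 for Ogn.
Tcf21: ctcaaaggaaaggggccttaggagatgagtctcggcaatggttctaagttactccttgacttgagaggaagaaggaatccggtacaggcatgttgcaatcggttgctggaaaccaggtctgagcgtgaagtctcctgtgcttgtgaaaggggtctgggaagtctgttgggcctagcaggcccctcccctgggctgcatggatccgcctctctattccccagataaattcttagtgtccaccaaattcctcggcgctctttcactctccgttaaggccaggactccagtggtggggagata
Dpt: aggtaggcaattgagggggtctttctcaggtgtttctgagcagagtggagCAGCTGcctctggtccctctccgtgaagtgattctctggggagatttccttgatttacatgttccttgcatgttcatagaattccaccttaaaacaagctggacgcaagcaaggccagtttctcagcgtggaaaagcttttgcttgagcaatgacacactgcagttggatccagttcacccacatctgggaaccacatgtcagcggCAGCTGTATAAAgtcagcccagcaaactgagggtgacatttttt
Aspn: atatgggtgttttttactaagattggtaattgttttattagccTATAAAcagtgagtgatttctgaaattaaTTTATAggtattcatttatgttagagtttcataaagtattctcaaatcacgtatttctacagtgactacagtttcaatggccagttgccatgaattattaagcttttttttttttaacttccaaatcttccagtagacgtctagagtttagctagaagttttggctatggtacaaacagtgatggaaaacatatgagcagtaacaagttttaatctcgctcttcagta
Omd: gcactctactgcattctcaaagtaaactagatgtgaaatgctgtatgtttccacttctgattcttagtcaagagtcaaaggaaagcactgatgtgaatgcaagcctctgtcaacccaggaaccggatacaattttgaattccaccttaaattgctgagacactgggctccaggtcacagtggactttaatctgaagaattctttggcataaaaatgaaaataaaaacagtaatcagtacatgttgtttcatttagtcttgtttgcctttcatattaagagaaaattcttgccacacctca
Ogn: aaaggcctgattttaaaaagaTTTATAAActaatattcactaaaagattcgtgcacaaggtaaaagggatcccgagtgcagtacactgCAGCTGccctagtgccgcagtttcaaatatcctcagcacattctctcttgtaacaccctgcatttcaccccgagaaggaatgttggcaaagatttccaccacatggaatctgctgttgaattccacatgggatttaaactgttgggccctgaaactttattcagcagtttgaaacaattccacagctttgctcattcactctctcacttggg
TATAAA was found in Dpt (1 match), Aspn (2 matches) and Ogn (2 matches), and CAGCTG in Dpt (2 matches) and Ogn (1 match). The TATAAA of Dpt began at base 13 after the start, and those of Aspn and Ogn 178 to 229 bases before it. Neither motif was found in the windows of Tcf21 and Omd, nor in that of Ecm2, also on chromosome 13 and not printed. A link of these matches to the levels was not tested. Of 32851 RefSeq windows of the same length, 13.6% held TATAAA and 16.3% held CAGCTG.

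The genes of the rule were read as a description only, since they chose the members. Levels are given as CPM, each gene's share of the summed counts of a group in 1 library per 1000000 counts, and since the chemistry tags 3' ends they are not scaled by transcript length. Dpt stood at 1317 and 1270 CPM in technical replicates 1 and 2, Lum at 1632 and 1724, Tcf21 at 593 and 685 and Pdgfra at 129 and 124 CPM. Among the 734 members, 712 had a count of Dpt, 670 of Lum, 606 of Tcf21 and 334 of Pdgfra. Tcf21 and Dpt were found together in 593 members, Dpt without Tcf21 in 119, and Tcf21 without Dpt in 13. All 4 genes were present in 273 members, 3 in 325, 2 in 119 and 1 in 17. Thinned to 3000 counts a cell, 74.3% of members (95% interval 70.6% to 77.7%) had a count of Tcf21, or 82.6% before thinning. In cardiomyocytes, which should lack it, the thinned share was 1.08% and the share before thinning 2.15%, at a median of 5901 counts.

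Levels on either side of the limits are given as a description, since most of the genes compared served in the rule. The 41 members with a marker sum of 4 or 5 had 1806 CPM of Dcn and 279 of Tcf21, and the 41 barcodes just outside, with a sum of 2 or 3, had 1535 and 181 CPM. At the limit on Scx/Fmod genes, 109 members at 1 or 2 counts had 580 CPM of Tcf21, and 45 barcodes just outside, at 3 or 4 counts, had 366. Tcf21 is part of the marker sum, so its difference at the first limit follows in part from the rule. It is not part of the Scx/Fmod sum. At the collagen limit, 9 members with 10 to 12 counts had 1108 CPM of Dpt, 2771 of Lum and 29.2 of Pdgfra, and 8 barcodes just outside, with 7 to 9 counts, had 410, 1455 and 224. The 92 barcodes that had 1 count of Pecam1 or Cdh5 and met the other limits had 609 CPM of Tcf21 and 1055 of Dpt. The cell cycle limit alone left out 167 barcodes, so the members leave out cells of the same kind with more than 4 counts of its 8 genes. Other cycle genes were not limited. The 25 S phase genes summed to 806 CPM in members, 599 in Scx/Fmod fibroblasts and 997 in pericytes.

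Of the 16 fibroblast markers, 10 were outside the rule. Decorin (Dcn), a proteoglycan that spaces collagen fibrils, stood at 4054 and 4514 CPM in members, against 149 and 206 in pericytes and 32.1 and 42.0 in cardiomyocytes. Periostin (Postn), a matrix protein of growing connective tissue, stood at 2930 and 2939 CPM, and the actin-severing protein gelsolin (Gsn) at 943 and 984 CPM. All 16 summed to 30874 CPM in members over both libraries, of which the 6 genes of the rule gave 16716, so the sum is a description.

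**Figure D1:**
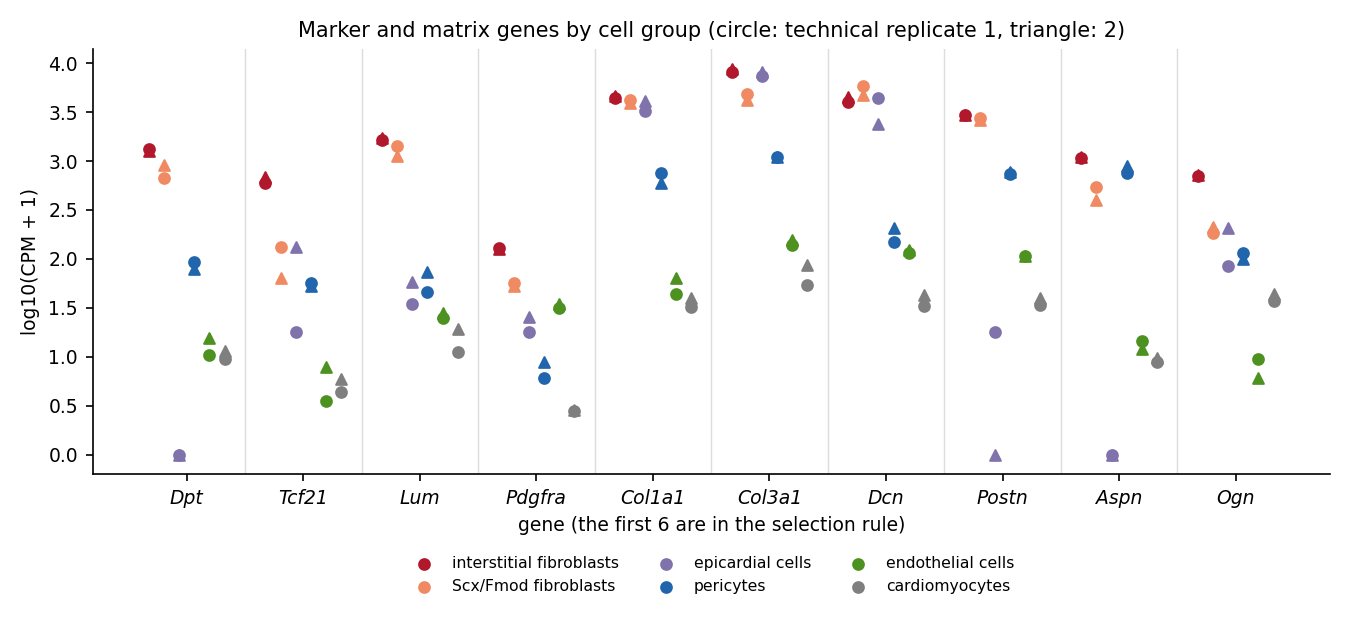
Levels of 10 marker and matrix genes, as log10 of CPM plus 1, in each cell group and technical replicate (circle for replicate 1, triangle for replicate 2); the first 6 genes chose the members. Dcn and Postn are as high in Scx/Fmod fibroblasts as in members, while Ogn is highest in members and Aspn is shared with pericytes and at 0 in the epicardial cells.

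Markers of other cell types were not absent from members, and their levels differed by cell type. The 10 cardiomyocyte markers summed to 1755 CPM in members and 38841 in cardiomyocytes, with troponin T (Tnnt2) at 357 CPM in members, 301 in Scx/Fmod fibroblasts and 206 in endothelial cells. The 8 pericyte markers summed to 535 and 569 CPM in members, 198 and 255 in Scx/Fmod fibroblasts and 9488 and 10291 in pericytes. The 6 smooth muscle markers summed to 1027 and 933 CPM in members and 3158 and 3761 in pericytes. Neither list was lower in members than in all other barcodes with at least 500 genes. Those had 505 and 496 CPM of the pericyte list and 579 and 668 of the smooth muscle list. The 9 epicardial markers summed to 23.0 CPM in members and 4805 in epicardial cells, and the 10 macrophage markers to 70.0 CPM, with 0.245 CPM of the leukocyte gene Ptprc. The sums in pericytes and epicardial cells are descriptions, since the rules of those groups used 5 of the 8 and 4 of the 9 markers. Of the members, 80 also met the pericyte marker sum and 2 the epicardial sum. In those 80, Tcf21 stood at 590 CPM and Rgs5, a pericyte gene, at 1520, while the other 654 had 643 CPM of Tcf21 and 37.2 of Rgs5. Several other fibroblast genes had less in the 80, with Dcn at 1718 CPM against 4611, Lum at 766 against 1797, Dpt at 1018 against 1332 and Pdgfra at 47.8 against 137, while Postn stood at 2989 against 2927. Doublets of a fibroblast and a pericyte, free RNA and cells with both programmes cannot be told apart here.

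The small leucine-rich proteoglycans, which regulate how collagen fibrils grow, included both abundant and nearly absent members of the family. Asporin (Aspn) stood at 1069 and 1095 CPM and osteoglycin (Ogn) at 702 and 713 CPM in members. Omd, which lies between them on chromosome 13, had 1.85 and 1.56 CPM, and their neighbour Ecm2 83.6 and 67.2 CPM. On chromosome 10, Dcn and Lum were both high, whereas Epyc had 1.85 and 4.69 CPM. The 2 chromosome 13 genes with high levels differed in which other cells shared them: Aspn was at 759 and 883 CPM in pericytes and 543 and 395 in Scx/Fmod fibroblasts, and Ogn at 113 and 99.3 and at 183 and 213.

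Collagens and other secreted proteins were among the genes with the most counts. Col3a1 and Col1a1, both in the rule, stood at 8469 and 4513 CPM over both libraries, and Col1a2 at 3661. Sparc, a secreted protein that binds collagen and calcium, stood at 4574 CPM, the cytokine pleiotrophin (Ptn) at 2279 and the activin-binding protein gene Fstl1 at 1780. The maternally expressed non-coding RNA Meg3 reached 2744 CPM, and the insulin-like growth factor binding protein gene Igfbp7 2690. The highest count outside mitochondrial and ribosomal protein genes belonged to the nuclear RNA Malat1, at 21612 and 16282 CPM.

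Transcription factors of the cardiac mesenchyme were present beside Tcf21. The T-box factor gene Tbx20, known from valve and muscle development, stood at 997 and 1141 CPM in members, 2249 and 2065 in Scx/Fmod fibroblasts, 354 and 355 in pericytes and 925 and 1008 in cardiomyocytes. Its ratio of Scx/Fmod fibroblasts to members, 2.03, did not reach 2-fold in both libraries. Sox9, a regulator of cartilage-type matrix, stood at 268 and 247 CPM in members and 294 and 291 in Scx/Fmod fibroblasts, with 53.0 and 15.7 in pericytes. A count of Sox9 was found in 48.9% of thinned members (62.8% before thinning) and 0.383% of thinned cardiomyocytes (0.715% before thinning). The epicardial factor Wt1 was low, at 11.1 and 6.77 CPM in members against 388 and 366 in epicardial cells and 101 and 94.6 in endothelial cells. Tbx18, another gene of the epicardial lineage, remained at 117 and 115 CPM in members. Relative to epicardial cells, Wt1 was thus far lower in members, while Tbx18 was lower but did not pass the 2-fold limit in both libraries.

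Gata4, Gata6 and Hand2, shared by many heart cells, stood at 85.7, 147 and 50.9 CPM in members. Prrx1, a factor of limb and body-wall mesenchyme, stood at 139 CPM, and Hic1, a repressor known from quiescent mesenchymal cells, at 151 CPM. The cardiomyocyte factor gene Tbx5 had 4.41 CPM in members and 162 in cardiomyocytes. Isl1, a factor of second heart field progenitors, had 1 count among all members.

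The first comparison asked how interstitial fibroblasts differed from the 70 Scx/Fmod fibroblasts. A gene was tested when the mean of both groups' CPM was at least 20, and it is called higher or lower here when its CPM ratio was at least 2 in the same direction in both technical replicates, sums under 3 counts being set to 3. A ratio printed for a gene with 1 to 3 counts in a group uses those counts as they are, with their interval, and one for a gene at 0 is a bound set at 3 counts. By the calling rule 216 of 6230 genes were higher in members (3.47%) and 218 were lower (3.5%), and the median log2 ratio over all tested genes was -0.03. The near balance depended on the limit for testing and on depth. At a mean CPM of 5 the counts were 222 and 951, and at 3000 counts a cell 132 and 370. In the smaller group, 3 counts set in place of fewer can by themselves make a gene pass as lower in members. The added lower calls are therefore not read as genes enriched in Scx/Fmod fibroblasts. The adventitial, resting fibroblast and imprinted lists had more genes called higher than lower, and the list of Wnt ligands and modulators more called lower.

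The adventitial list holds genes known from fibroblasts around vessels. Of its 12 tested genes, 7 were higher in members and 2 (Pi16 and Limch1) lower, with a median log2 ratio of 2.08. Mfap5, a glycoprotein of microfibrils, stood at 712 and 713 CPM in members and 25.4 and 5.20 in Scx/Fmod fibroblasts, a ratio of 46.2 (21.2 to 126), or 28.1 and 45.7 in the single libraries. Clec3b, which encodes the plasminogen-binding protein tetranectin, stood at 268 and 244 CPM in members against 1 count in the other group, a ratio of 100.03 (17.9 to 3955) from that single count, or 33.3 with 3 counts. Both genes were thus close to absent from Scx/Fmod fibroblasts. The guidance molecule gene Sema3c was 3.72-fold higher (2.06 to 7.52). Pi16, often named with Mfap5 and Clec3b as an adventitial marker, went the other way, at 56.8 and 40.1 CPM in members and 127 and 151 in Scx/Fmod fibroblasts, 2.83-fold lower (2.06 to 3.85).

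The surface glycoprotein gene Thy1, a fibroblast marker, was at 90.1 and 98.4 CPM in members and had 0 counts in Scx/Fmod fibroblasts, at least 12.2-fold higher. Such bounds set 3 counts over both libraries together, and with 3 counts in each library they were 5.91 and 6.31 for Thy1. It was also present in pericytes, at 140 and 170 CPM. Thinned to equal depth, 52.9% of members had a count of Mfap5 (59.5% before thinning), against 5.08% of Scx/Fmod fibroblasts (7.14%) and 1.34% of cardiomyocytes (2.75%). For Clec3b the thinned shares were 29.6% of members (35.6% before thinning), 0% of the 59 thinned Scx/Fmod fibroblasts (upper limit 6.06%; 1.43% before thinning) and 0.383% of cardiomyocytes (0.440% before thinning). Mfap5 and Clec3b therefore divided the members themselves as well as separating them from the other group.

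Genes of resting interstitial fibroblasts gave 9 higher and 0 lower of 14 tested, with a median log2 ratio of 2.09. Smoc2, a calcium-binding matrix protein, stood at 211 and 220 CPM against 5.08 and 15.6, a ratio of 20.9 (8.14 to 76.9). Lipoprotein lipase (Lpl), which releases fatty acids from circulating lipoproteins, stood at 469 and 444 CPM against 107 and 78.0, a ratio of 4.94 (3.56 to 7.08). Col15a1, a collagen of the basement membrane zone, stood at 297 and 389 CPM against 35.5 and 88.4, a ratio of 5.52 (3.70 to 8.65). The lipid transporter gene Abca8a was 8.03-fold higher (4.47 to 16.1, with 4.53 and 15.98 in the single libraries), and the monooxygenase gene Fmo2 had 0 counts in the other group and was at least 6.32-fold higher. Dpep1, Entpd2, G0s2 and Lamc1 were the other genes of the list that were higher. A list of activated fibroblast genes gave 3 higher and 6 lower of 16 tested here, and 8 higher and 2 lower of 15 against pericytes. In members it summed to 8962 CPM, and the resting list to 5065, so members are not described as resting.

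Imprinted genes, which are expressed from 1 parental copy and set fetal growth, were called higher in members in 8 of 15 tested, lower in 0 and in neither direction in 7, with a median log2 ratio of 1.26. Dlk1, a Notch-like protein of fetal progenitors and preadipocytes, stood at 358 and 497 CPM in members and 25.4 and 15.6 in Scx/Fmod fibroblasts, a ratio of 20.6 (10.4 to 47.8), or 14.1 and 31.9 in the single libraries. The cyclin-dependent kinase inhibitor gene Cdkn1c stood at 402 and 465 CPM against 76.1 and 5.20, a ratio of 10.5 (6.45 to 18.4), with ratios of 5.28 and 29.8 in the single libraries. Mest stood at 599 and 684 CPM against 96.5 and 187, a ratio of 4.52 (3.46 to 6.02). The growth-restricting RNA H19 was 2.94-fold higher (2.54 to 3.42), Meg3 2.40-fold (2.18 to 2.64), and the zinc finger factor gene Plagl1 3.10-fold (1.55 to 7.25). Peg3 and Kcnq1ot1 completed the 8. Igf2, the fetal insulin-like growth factor that lies beside H19 on chromosome 7, was at 323 and 328 CPM against 168 and 114, a ratio of 2.30 that did not reach 2-fold in both libraries.

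Of 30 matricellular and glycoprotein genes tested, 14 were higher in members, 5 lower and 11 called in neither direction, with a median log2 ratio of 0.62. Fibronectin (Fn1) stood at 868 and 930 CPM against 213 and 270, a ratio of 3.72 (3.03 to 4.61). The tenascin gene Tnxb was 14.3-fold higher (6.53 to 39.0) and the spondin gene Spon2 9.33-fold (5.96 to 15.5). The 5 lower genes were Tgfbi, Matn4, Thbs1, Ccn2 and Cthrc1. Among 17 collagens outside the fibrillar list, 5 were higher and 4 lower (Col9a3, Col9a1, Col12a1 and Col18a1), with a median log2 ratio of 0.73. Col4a1, a chain of basement membrane collagen, stood at 729 and 814 CPM against 198 and 250, a ratio of 3.44 (2.78 to 4.31), and Col4a2 was 3.48-fold higher (2.62 to 4.72).

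Of the 3 chains of collagen IX, a collagen of cartilage, 2 were lower in members. Col9a1 stood at 4.16 and 5.21 CPM in members and 234 and 146 in Scx/Fmod fibroblasts, 40.9-fold lower (24.4 to 71.7), and Col9a3 was 60.1-fold lower (31.4 to 127). The third, Col9a2, was not called, at 40.1 CPM in members and 30.8 in Scx/Fmod fibroblasts, and it was higher in members than in pericytes. Of 19 proteoglycan genes, 4 were higher and 6 lower. Hapln1, which links hyaluronan to proteoglycans, was 28.6-fold lower (13.9 to 63.3). Prg4, the lubricating proteoglycan of joints, had 0 counts in members and 102 and 41.6 CPM in the other group, at least 98.0-fold lower. Fibrillar collagens did not separate the groups as a list: of 6 tested outside the rule, 1 was higher (Col5a3) and 0 lower. The elastic fibre list had 1 of 18 higher (Mfap5) and 5 lower, among them Fbln5, which assembles elastin, 4.42-fold lower (3.92 to 4.97), and the calcification inhibitor gene Mgp, 3.65-fold lower (3.42 to 3.90).

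Some signalling genes also differed. Of 31 growth factor and ligand genes tested, 8 were higher in members, 3 lower and 20 called in neither direction. Of 34 growth factor receptors, 4 were higher, 3 lower and 27 neither. Of 9 Wnt genes tested, 1 was higher in members and 5 lower, with a median log2 ratio of -2.09. The ligand gene Wnt16 stood at 4.16 and 2.60 CPM in members and 132 and 151 in Scx/Fmod fibroblasts, 41.2-fold lower (22.6 to 80.3). The secreted inhibitor gene Wif1 was 45.9-fold lower (20.9 to 115, with 84.3 and 24.0 in the single libraries), Dkk3 4.74-fold (4.01 to 5.59) and Sfrp2 4.25-fold (3.90 to 4.62). Sfrp2 was nevertheless at 477 and 456 CPM in members, so low here means lower than in the other fibroblasts and not absent. The growth factor gene Igf1 stood at 119 and 103 CPM in members and 873 and 686 in Scx/Fmod fibroblasts, 7.0-fold lower (6.03 to 8.11).

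Retinoid enzymes split between the groups. Aldh1a2, which makes retinoic acid, stood at 193 and 206 CPM in members and 25.4 and 0 in Scx/Fmod fibroblasts, a ratio of 15.5 (6.61 to 47.8), or 7.61 and 13.2 in the single libraries. Aldh1a1, another retinaldehyde dehydrogenase, was 6.59-fold lower in members (4.67 to 9.22). Cyp26a1, which degrades retinoic acid, had 0 counts in members and stood at 122 and 161 CPM in the other group, at least 192-fold lower. These 3 were the only called genes of the 8 retinoid genes tested, so of the 2 retinaldehyde dehydrogenases called, 1 was higher and 1 was lower. A count of Aldh1a2 was found in 37.9% of thinned members (50.3% before thinning) and 0.638% of thinned cardiomyocytes (1.27% before thinning).

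Of 90 transcription factor genes tested, 13 were higher and 10 lower in members, with a median log2 ratio of -0.18. The Krüppel-like factor genes Klf2 and Klf4, known from endothelium and from immediate stress responses, stood at 602 and 591 CPM against 107 and 125, and at 159 and 115 against 25.4 and 20.8. Their ratios were 5.16 (3.85 to 7.10) and 5.98 (3.13 to 13.1). Ebf2, a factor of mesenchymal and brown fat precursors, had 0 counts in Scx/Fmod fibroblasts and was at least 9.34-fold higher. The interferon-regulatory factor gene Irf8, better known from macrophages, stood at 125 and 138 CPM against 3 counts, a ratio of 17.1 (5.80 to 83.0), and a count of it was found in 27.2% of thinned members (40.7% before thinning), 24.5% of pericytes (25.6%) and 0.638% of cardiomyocytes (1.16%). The macrophage marker sum was 70.0 CPM in members and 43.7 in Scx/Fmod fibroblasts, and its part in the Irf8 level was not tested. On the lower side were the limb and valve factor gene Tbx3, 19.7-fold (7.83 to 53.6, with 13.2 and 30.0 in the single libraries), the cartilage factor gene Sox5, 4.99-fold (3.09 to 7.89), and the somite factor gene Meox1, 3.22-fold (2.71 to 3.82). None of 11 glycolysis genes and none of 10 heat shock genes was called in either direction.

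**Figure D2:**
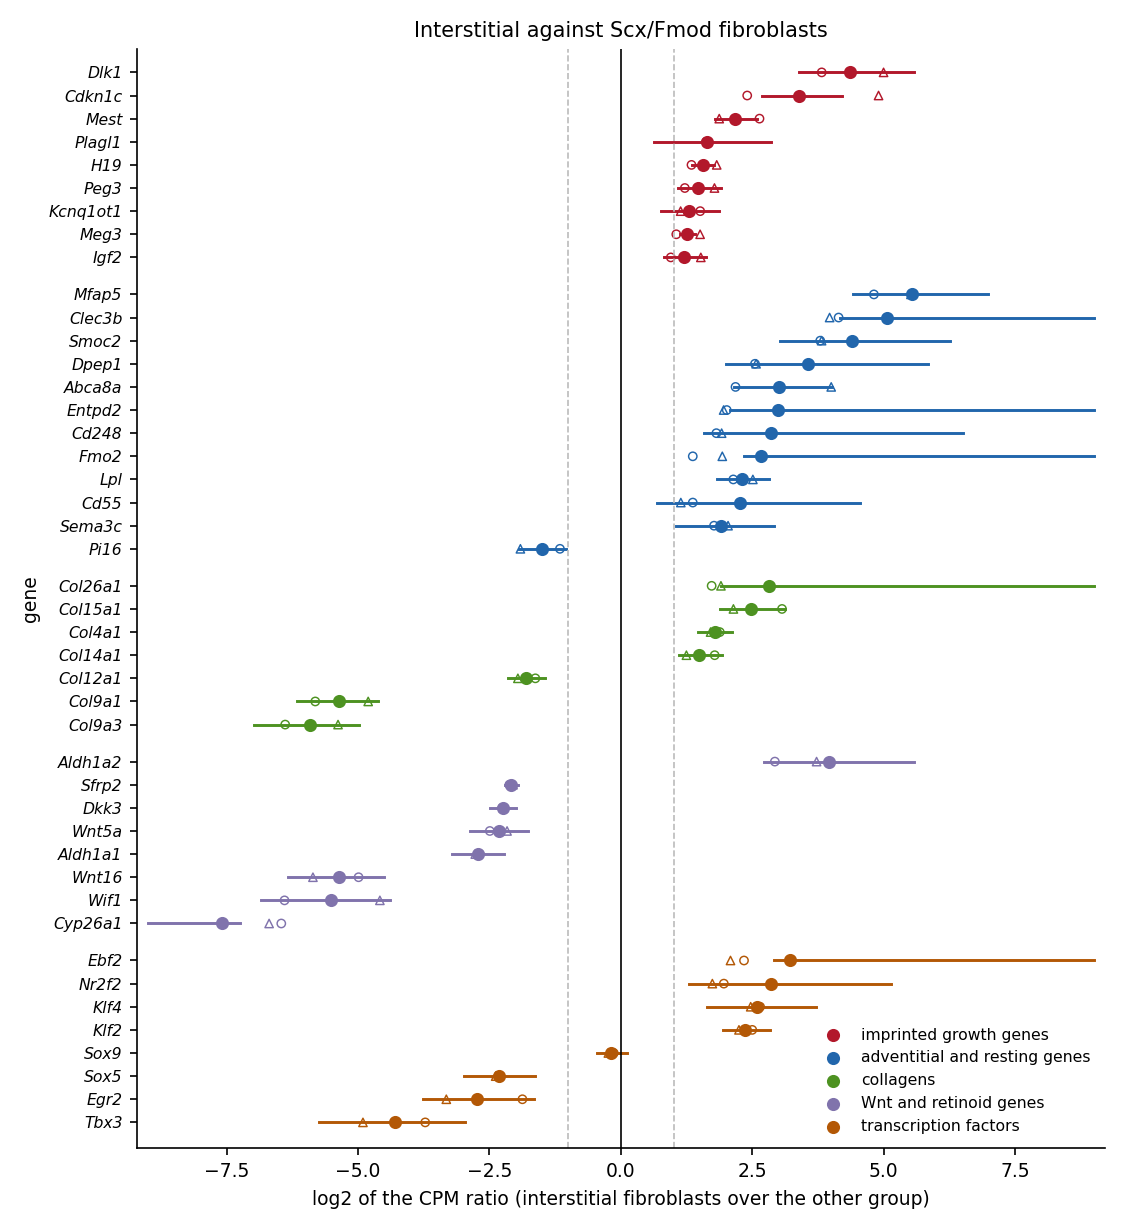
Log2 of the CPM ratio of interstitial over Scx/Fmod fibroblasts for genes of 5 lists. Filled points are both libraries together with sums under 3 counts set to 3, lines are exact 95% intervals drawn to the edge where they run beyond it, open circles and triangles are replicates 1 and 2, and dashed lines mark 2-fold. The imprinted, adventitial and resting genes drawn, other than Pi16, lie to the right, Wnt genes, Col9a1, Col9a3 and Cyp26a1 to the left, and Sox9 at 0.

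The comparison with the 234 pericytes asked what separates fibroblasts from their mural neighbours. Here 275 of 6335 genes were higher in members (4.34%) and 372 lower (5.87%), with a median log2 ratio of -0.04. The collagen and adventitial lists had more genes called higher in members than lower, and the smooth muscle list was lower in all its tested genes. Of 16 proteoglycans tested, 5 were higher, 1 lower (Acan) and 10 neither, and of 31 growth factor receptors 6 were higher, 4 lower and 21 neither. Pericytes were chosen by 5 genes that are not counted here. The 80 members that also met the pericyte marker sum were kept out of the pericyte group, since they met the fibroblast marker and collagen limits. How far the calls of fibroblast markers and collagens rest on this assignment was not tested.

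Of 10 fibroblast markers outside the rule, 7 were higher in members and 0 lower. Dcn was 24.9-fold higher (21.4 to 29.2), Fbln1, a fibulin of basement membranes and elastic fibres, 5.57-fold (4.21 to 7.53), and Postn 3.93-fold (3.64 to 4.24). Among collagens, 4 of 6 fibrillar genes outside the rule and 11 of 14 others were higher and 0 lower, with median log2 ratios of 1.63 and 1.48. Col1a2 stood at 3657 and 3666 CPM against 1042 and 873, a ratio of 3.75 (3.51 to 4.01), and Col15a1 was 6.46-fold higher (4.89 to 8.72). Col4a1 was not called and leaned the other way, at 769 CPM in members and 1145 over both libraries in pericytes. The higher collagen levels of members thus did not extend to this basement membrane chain.

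Ogn was 6.58-fold higher in members (5.41 to 8.08) and the large proteoglycan gene Vcan 4.11-fold (3.18 to 5.40), whereas Aspn was not called, at a ratio of 1.34. Of 11 adventitial genes, 8 were higher and 1 lower, with a median log2 ratio of 3.22. Mfap5 was at 23.9 and 54.9 CPM in pericytes and 19.7-fold higher in members (14.1 to 28.3, with 29.8 and 13.0 in the single libraries), and Cd34, a surface sialomucin of endothelium and fibroblasts, stood at 536 and 524 CPM against 61.5 and 49.7, a ratio of 9.33 (7.14 to 12.4). The lysophosphatidic acid receptor gene Lpar1 was 30.6-fold higher (14 to 83.5). Klf4 had 3 counts in pericytes, a ratio of 44.6 (15.2 to 217).

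Ligand genes went both ways, with 8 of 29 higher and 6 lower. Ptn stood at 2232 and 2333 CPM in members and 403 and 531 in pericytes, a ratio of 5.02 (4.57 to 5.54). The lymphangiogenic ligand gene Vegfd was 3.52-fold higher (2.05 to 6.55) and the guidance gene Slit2 3.47-fold (2.16 to 5.95). The neurotrophin gene Ntf3 was 16.5-fold lower (10.4 to 27.4), the platelet-derived ligand gene Pdgfa 6.24-fold (4.55 to 8.60) and the chemokine gene Cxcl12 3.27-fold (2.76 to 3.89). The receptor gene Pdgfrb, which was in neither group's rule, stood at 55.4 and 57.3 CPM in members and 615 and 544 in pericytes, 10.4-fold lower (8.93 to 12.2).

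Of the mural genes, elastin (Eln) stood at 2161 and 2042 CPM in members and 8745 and 8715 in pericytes, 4.15-fold lower (4.03 to 4.28). Smooth muscle actin (Acta2) stood at 656 and 585 CPM against 1985 and 2439, 3.48-fold lower (3.28 to 3.68). All 5 smooth muscle markers tested and all 3 pericyte markers outside the group's rule were lower. The metalloreductase gene Steap4 had 4 counts in members and 297 and 308 CPM in pericytes, 308-fold lower (119 to 1139). Without the 80 members that also met the pericyte sum, Acta2 in members fell from 623 to 419 CPM and Eln from 2105 to 1509, so the members with pericyte genes held a large part of both.

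Transcription factors gave 15 higher and 15 lower of 84 tested. Sox9 was 6.75-fold higher in members (4.86 to 9.64, with 5.06 and 15.7 in the single libraries), Tbx20 3.0-fold (2.69 to 3.36), Meox1 6.31-fold (4.13 to 10.1) and Twist2, a mesenchymal repressor gene, 4.19-fold (2.40 to 7.99). Lower were the nuclear receptor genes Nr2f1, 10.6-fold (6.82 to 17.0), and Nr2f2, 4.24-fold (3.51 to 5.12), the muscle factor gene Mef2c, 5.62-fold (4.95 to 6.37), and Tbx2, 7.60-fold (4.78 to 12.3). Meox1 and Nr2f2 show that the direction depended on the neighbour: Meox1 was lower in members than in Scx/Fmod fibroblasts, and Nr2f2 was 7.24-fold higher in members than in that group (2.45 to 35.4). Of 15 imprinted genes, 7 were higher and 1 (Gnas) lower, among them H19, 2.88-fold (2.62 to 3.17), and Igf2, 2.65-fold (2.19 to 3.22). Dlk1 was not called, at 294 and 452 CPM in pericytes, and 29.8% of thinned pericytes had a count of it (35.9% before thinning), against 30.9% of members (37.9%) and 0.830% of cardiomyocytes (1.87%). Of 13 glycolysis genes, 4 were lower in members and 0 higher.

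**Figure D3:**
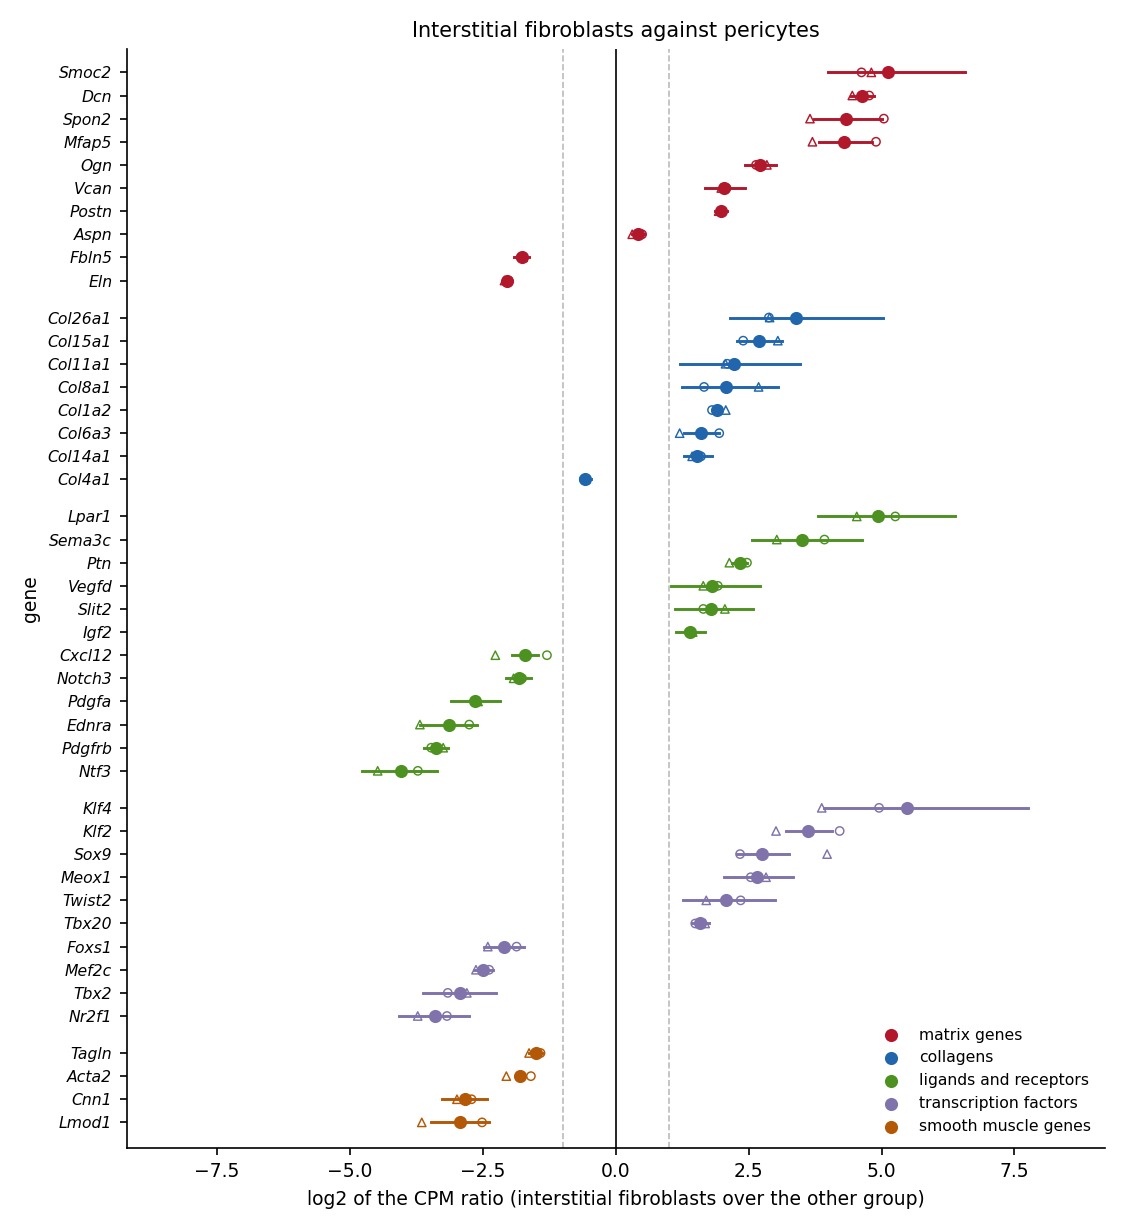
Log2 of the CPM ratio of interstitial fibroblasts over pericytes for matrix, collagen, signalling and regulatory genes, drawn as in the plot against Scx/Fmod fibroblasts. Dcn, Mfap5 and Smoc2 lie far to the right, Eln, Pdgfrb and Nr2f1 to the left, and Aspn and Col4a1 inside the 2-fold lines.

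Epicardial cells were only 29 barcodes, 8 and 21 in the libraries, so a few counts can move a ratio. Of 6553 genes, 199 were higher in members (3.04%) and 980 lower (15%), with a median log2 ratio of -0.04. That split depends on the floor and on depth: a floor of 1 count gave 464 higher and 707 lower, and thinning to 3000 counts a cell 54 and 2602. In so small a group, 3 counts set in place of fewer can by themselves call a gene lower in members. They can also keep a higher gene from being called. The 15% is therefore not read as a share of genes enriched in epicardial cells. Postn had 1 count in epicardial cells and a ratio of 534 from it (95.9 to 21107), or 178 with 3 counts. Aspn had 0 counts there and, with 3 counts set in its place, was at least 65.6-fold higher in members. Tbx20 stood at 16.9 and 97.7 CPM in epicardial cells, a ratio of 14.9 (8.71 to 28), and Sox9 had 0 counts there and was at least 15.7-fold higher in members. Col1a2 was not called, at 3863 and 4030 CPM in epicardial cells. Of 14 adventitial genes tested, 3 were higher in members, 3 lower and 8 called in neither direction, with a median log2 ratio of 0.09. The adventitial genes summed to 2410 CPM in members, 2109 in epicardial cells and 1830 in endothelial cells. Of 28 matricellular and glycoprotein genes tested, 14 were higher in members, 2 (Spon1 and Nid2) lower and 12 called in neither direction, with a median log2 ratio of 1.403. The whole list summed to 12345 CPM in members and 3855 in epicardial cells, so the list was lower there in sum and not absent.

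Complement and antigen-presentation genes were lower in members as a list, 14 of 17 lower and 0 higher, with a median log2 ratio of -3.36. Complement component C3 stood at 0.462 and 13.5 CPM in members and 2868 and 1962 in epicardial cells, 342-fold lower (231 to 525), and 145-fold in replicate 2 alone. The macrophage markers summed to 84.3 and 773 CPM in epicardial cells and 116 and 18.2 in members, and their part in this difference was not tested. Igfbp5 stood at 60.5 and 70.8 CPM in members and 4504 and 3705 in epicardial cells, 60.7-fold lower (52.7 to 70.1), and the Wnt agonist gene Rspo1 was 139-fold lower (80.2 to 258, with 353 and 77.0 in the single libraries). Wnt5a was 15-fold lower (10.6 to 21.0). Of 16 imprinted genes, 1 was higher (Mest, 23.3-fold, 9.96 to 71.7) and 2 lower, with Cdkn1c at 1383 and 1409 CPM in epicardial cells, 3.24-fold lower in members (2.83 to 3.70). Aldh1a2 was not called, at 371 and 228 CPM in epicardial cells, so members and epicardium both held this retinoic acid enzyme while Scx/Fmod fibroblasts and pericytes held little.

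Against all 11015 other barcodes, 1081 of 6117 genes were higher (17.7%) and 642 lower (10.5%), with a median log2 ratio of 0.38. In that mixture 68.8% of barcodes had over 20% mitochondrial counts, against 2.32% of members, and the split of calls depended on it. With mitochondrial and haemoglobin genes taken out of the totals, 627 were higher and 1014 lower, so the share of higher calls went from 62.7% to 38.2%.

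Members also varied among themselves. The 618 members with at least 3000 counts were thinned to 3000 counts each, and 116 shallower ones were left out. Of 2424 genes with a mean of at least 0.2 counts, the median variance over mean was 1.07, where counting alone gives 1, and 110 genes reached 2. Tcf21 (1.88) and Dpt (1.97) stayed under 2, though both served in the rule, which limits their spread. The genes with the largest values were Eln (64.3), Malat1 (27.1), Actb (15.7), the apolipoprotein gene Apoe (14.1), Dlk1 (10.3), Sfrp2 (9.56), H19 (9.35) and Acta2 (8.53).

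Eln stood far above all others in both libraries, at 71.5 and 55.6. A count was found in 71.5% of thinned members (83.2% before thinning) and 9.44% of thinned cardiomyocytes (18.0% before thinning). The median member had 2 counts of Eln and the highest 432, and the top 10% of members by Eln held 72.0% of all its counts. The corresponding share was 24.2% for Dcn, 33.4% for Tcf21, 70.5% for Dlk1 and 83.8% for Rgs5. Elastin transcripts were thus concentrated in few members, whereas Dcn was spread over most.

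**Figure D4:**
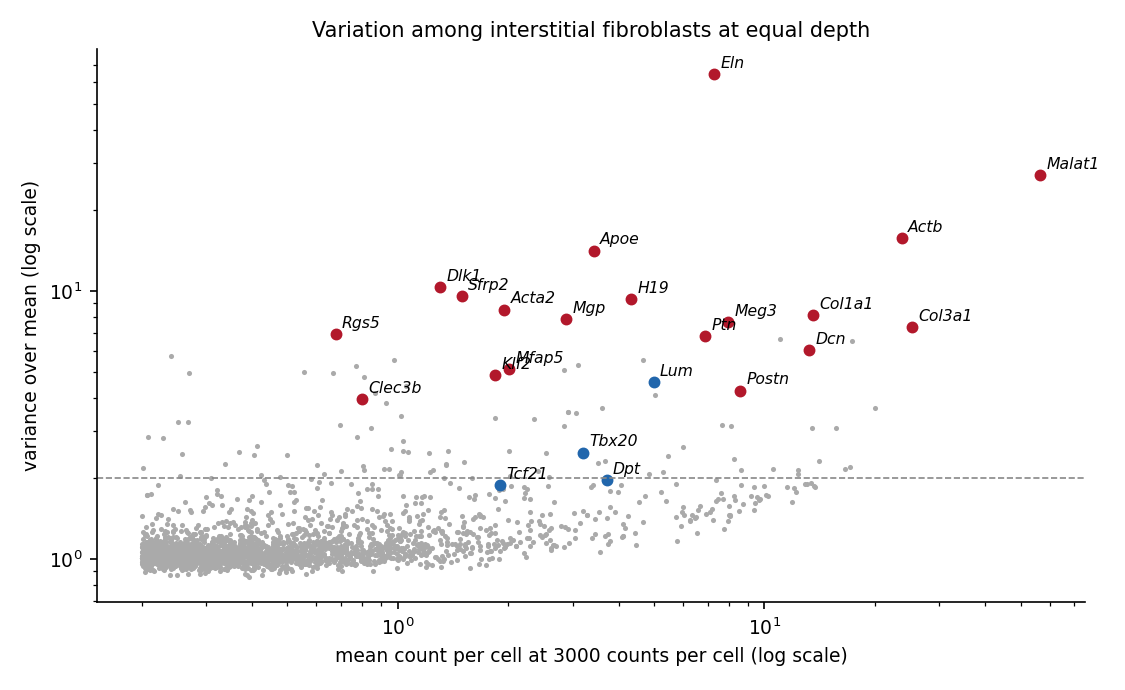
Variance over mean against the mean count per cell for 2424 genes in 618 interstitial fibroblasts thinned to 3000 counts, both axes on a log scale, with the dashed line at 2. Eln lies highest at 64.3, and of the genes with names Tcf21, Dpt, Lum and Tbx20 are blue and the rest red.

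Sets of genes varied together, and they are shown by dividing the 618 thinned members by a count of 1 gene. The genes shown for each division were chosen after their values were seen, and these values are descriptions of cells that share a library and a thinned depth. Members with a count of Mfap5 (327) and without (291) had mean counts of Clec3b of 1.33 and 0.199, of Sema3c 0.535 and 0.0550, of Klf4 0.682 and 0.110 and of Klf2 2.83 and 0.739. The Mfap5-positive members also had more of Cd34 (2.16 and 0.787), the calcium-binding protein gene S100a6 (4.50 and 1.52) and Dcn (16.4 and 9.69). They had less of Apoe (1.56 and 5.52), Acta2 (1.06 and 2.96) and Eln (4.95 and 9.91). Tcf21 was level, at 1.89 and 1.91, and the original median depth was 6459 and 5588 counts. The Spearman correlation of thinned counts over the 618 members was 0.486 for Mfap5 with Clec3b, at 0.505 and 0.464 in the libraries, and 0.503 for Klf2 with Klf4. Pi16, the adventitial gene that was lower in members than in Scx/Fmod fibroblasts, was also higher in Mfap5-positive members, at 0.229 and 0.0241. The other adventitial genes of the list were not measured in this division, apart from Cd34, Clec3b and Sema3c.

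Several imprinted genes differed with Dlk1. Members with a count of Dlk1 (191) had a mean of 7.73 counts of H19 against 2.80 in those without (427), 12.7 against 5.85 of Meg3, 1.58 against 0.679 of Igf2, 2.86 against 1.38 of Mest and 0.377 against 0.126 of Plagl1. Dlk1 and Meg3 lie together on chromosome 12, and H19 and Igf2 together on chromosome 7, so genes of separate imprinted clusters moved together. Cdkn1c was nearer level, at 1.64 and 1.25, and Mest differed as much with Mfap5, at 2.498 and 1.09, where H19 stood at 5.30 and 3.22. Dcn, also on the imprinted list, stood at 15.01 and 12.4 with and without Dlk1, and the remaining genes of the list were not measured in these divisions. The correlation of Dlk1 with H19 was 0.391 (0.391 and 0.390 in the libraries) and that of H19 with Igf2 0.454. Aldh1a2 was also higher in Dlk1-positive members (0.895 and 0.424), and Eln (2.75 and 9.32) and Acta2 (0.817 and 2.46) were lower. Tcf21 differed little, at 1.85 and 1.92.

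Other genes were divided by Eln. Members with a count of Eln (442) had a mean of 3.50 counts of the microfibril-associated gene Mfap4 against 1.16 in those without (176), 0.998 against 0.188 of Fbln5 and 0.491 against 0.148 of Lox, the enzyme that cross-links elastin and collagen. Sfrp2 stood at 1.94 and 0.358. Over all 618 members several mural genes moved with them: Rgs5 was at 0.808 and 0.347, Tagln at 1.16 and 0.517, Pdgfrb at 0.215 and 0.102 and Cxcl12 at 0.346 and 0.0739. Without the 80 members that met the pericyte sum, which includes Rgs5, Rgs5 was near level in this division, at 0.119 and 0.112. Tagln (0.761 and 0.379), Pdgfrb (0.156 and 0.0621) and Cxcl12 (0.221 and 0.0559) still differed. Other pericyte markers were then divided: Ndufa4l2 leaned the other way, at 0.496 and 0.702, while Notch3 was higher with Eln, at 0.218 and 0.106. The correlation of Eln with Mfap4 was 0.528 and with Sfrp2 0.415. Mfap5, also a microfibril gene, did not follow, at 1.89 and 2.31, nor did Tcf21, at 1.90 and 1.89. The 2 libraries differed for Mfap5, at 1.99 and 1.88 in replicate 1 and 1.79 and 2.77 in replicate 2.

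Members with a count of the pericyte gene Rgs5 (113) were richer in contractile genes than the other 505, with 5.83 and 1.09 counts of Acta2 and 2.74 and 0.582 of Tagln, a smooth muscle actin-binding protein. Eln was at 19.6 and 4.54, Dcn at 7.58 and 14.5, Lum at 3.32 and 5.36 and Pdgfra at 0.195 and 0.414, while Tcf21 (1.92 and 1.90) and Dpt (3.42 and 3.78) were near level. The part of doublets in this division was not tested. Without the 80 members that met the pericyte sum, the Mfap5 division (312 and 234 members) still had 1.39 and 0.248 counts of Clec3b, the Dlk1 division (183 and 363) 8.03 and 3.01 of H19, and the Eln division (385 and 161) 2.01 and 0.385 of Sfrp2. The Eln difference between members with Rgs5 (49) and without (497) was then 7.84 and 4.52. In replicate 1 the Eln means were 9.79 and 4.53, and in replicate 2 they were 5.96 and 4.52. In the same division Acta2 stood at 3.80 and 1.06, Tagln at 1.47 and 0.567 and Dcn at 10.8 and 14.7.

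**Figure D5:**
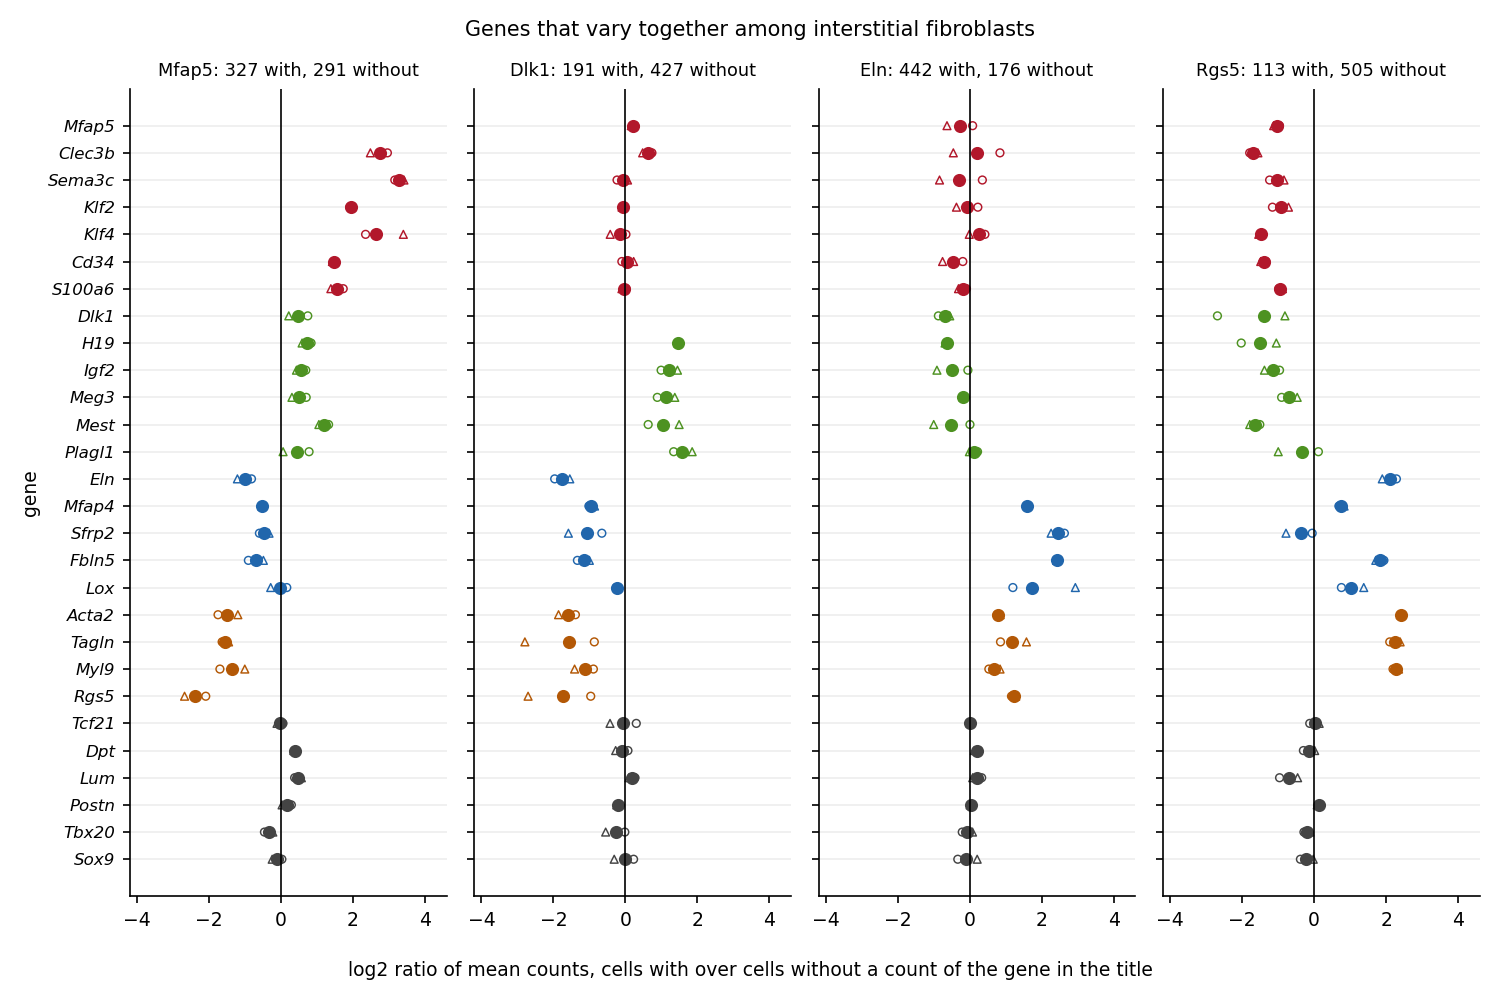
Log2 ratio of mean thinned counts in interstitial fibroblasts with over those without a count of Mfap5, Dlk1, Eln or Rgs5, for the genes in rows; filled points are all 618 members, open circles and triangles replicates 1 and 2. Clec3b, Sema3c, Klf2 and Klf4 lie to the right for Mfap5, H19, Igf2, Meg3, Mest and Plagl1 for Dlk1, Mfap4, Sfrp2 and Fbln5 for Eln, and Tcf21 lies near 0 in all panels.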

How the data were processed

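Whole newborn mouse heart was measured in 2 single-cell libraries, technical replicates of 1 biological sample. The deposited matrices hold whole-number counts per gene and barcode with no normalisation, whether molecules or reads is not stated, and per the submitters' processing notes they were made with Cell Ranger 2.1.0 on mm10. The 2 records share an internal identifier that only the first matrix carries, and matrices were assigned by deposit record. Of 27999 features, 362 had no unique symbol in a GENCODE annotation of GRCm38. Near-identical genes may have exchanged reads.

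Members and gene lists were chosen with earlier results of these data known. Counts were summed per group and technical replicate (4085963 counts in members over both) and scaled to counts per 1000000 (CPM). A gene was tested at a mean CPM of at least 20 and called at a ratio of at least 2 in both replicates, with a floor of 3 counts. Ratios carry exact conditional binomial and shares exact Clopper-Pearson 95% intervals, for counting error only. No test was possible with 1 biological sample. Spread among members was measured at 3000 counts a cell, drawn at random (seed 0). Genes named are those of the rule, up to 4 called per list and comparison with the largest ratios, 10 at each end of a comparison, 15 by variance, 30 by level, and lists of at most 20 by level, while others, such as Omd, Ecm2, Epyc, Gata4, Gata6, Hand2, Prrx1, Isl1, Tbx18, Lox and S100a6, were named after their values were seen. Alternatives were 1 replicate left out, other limits, totals, floors and depths. The comparison was tested on simulated counts. Python 3.11.15, numpy 2.4.6, scipy 1.17.1 and matplotlib 3.10.9 were used.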

Additional observations from a re-analysis of the deposited data

How the results depend on the processing

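No called ratio among the 228 named ones changed direction under any alternative that alters a ratio, and at least 225 stayed past 2-fold under each. These ratios were taken over both libraries together, or over the 1 library kept. Whether each gene still reached 2-fold in both libraries was not counted. Counts of called genes moved more. Without 1 replicate, when agreement of both was not required, 463 to 471 genes were higher and 495 to 520 lower than in Scx/Fmod fibroblasts, 416 to 603 and 1335 to 1877 against epicardial cells, and 390 to 475 and 520 to 560 against pericytes. At a fold of 1.5 the counts were 465 and 479, 455 and 1586, 538 and 690, and 2097 higher than all other barcodes; at a fold of 3 they were 88 and 121, 78 and 520, 144 and 202, and 471 and 415. At a mean CPM of 100, with fewer genes tested, they were 66 and 59, 132 and 164, 103 and 103, and 368 and 184. At a mean CPM of 5 they were 222 and 951, 199 and 3025, 394 and 741, and 1639 and 1225. Thinned to 3000 counts, which left 59 Scx/Fmod fibroblasts and 20 epicardial cells, 132 and 370, and 54 and 2602, were called. A floor of 1 count gave 464 higher and 707 lower than in epicardial cells. The floor of 3 counts can by itself call a gene lower in members where the other group is small. Lower calls there, above all at a mean CPM of 5 and after thinning, are therefore not read as enrichment. Against all other barcodes, leaving out those over 20% mitochondrial counts gave 468 higher (41.5% of calls), and totals without mitochondrial and haemoglobin genes 627 higher and 1014 lower; the median log2 ratio went from 0.38 to -0.01 and -0.02. Members were 7.87% of barcodes with at least 1000 genes, 17.2% of those with at most 20% mitochondrial counts, 5.40% at a marker sum of 8 and 5.32% at a collagen sum of 30. They numbered 465 (3.96%) without any count of 8 genes of other cell types, and made up 5.57% without those meeting the pericyte sum, an alternative chosen after seeing the data. The percentage was 5.84 to 6.67 in single replicates. Genes with variance over mean of at least 2 numbered 68 at 2000 and 195 at 5000 counts a cell. No paired analysis was possible because both libraries come from 1 biological sample and no groups of samples were compared. Depth limits what 0 counts mean most in the 29 epicardial cells.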

Other observations

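Xist, the RNA of the inactive X chromosome, had a count in 708 of the 734 members, and a Y-linked gene had a count in 1 member. Over all barcodes the numbers were 11127 and 7.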
